A study of Mus musculus with 21 samples.

Results

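The heat shock genes described here are 10 chaperone genes that cells raise when proteins unfold, namely Hspa1a, Hspa1b, Hspa8, Hsph1, Dnajb1, Dnaja1, Hsp90aa1, Hspb1, Hspe1 and Hspd1. They were picked by symbol, all 10 were found among the 56953 genes counted, and they were followed through all 21 libraries of a study of peritoneal B cells from wild-type (WT) and TET2-KO C57BL/6 mice. The choice rested in part on a measured value, the lower level of Hspa1a in TET2-KO B-1b libraries, so the genotype difference in B-1b cells is given as a description without a test. RNA came from the cells known as B-1a, as B-1b and as B-2, sorted from the peritoneal cavity. TET2, an enzyme that oxidizes methylated cytosine, was lost in every tissue of the knockout mice through deletion of the exons that encode its catalytic region. By the labels, B-1a cells had 4 WT and 4 TET2-KO libraries, B-1b cells 4 and 3, and B-2 cells 2 (numbered 1 and 4) and 4. No heat shock, drug or stimulus was part of the design, and the study calls the mice young, with no age in the sources used here. Nothing in the labels ties a library number to a mouse, so p-values measure the spread between libraries. The libraries were taken as independent, although same-numbered TET2-KO libraries varied alike.

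Heat shock proteins bind unfolded chains and help them fold or be degraded. The HSP70 proteins use ATP to clamp and release a client, J-domain proteins such as Dnajb1 and Dnaja1 load the client onto HSP70, and Hsph1 (HSP110) exchanges the nucleotide so that the client is let go. HSP90 finishes the folding of kinases and receptors, Hspb1 is a small heat shock protein that holds unfolded chains without ATP, and Hspd1 with its lid Hspe1 forms the folding chamber of mitochondria. Some members are made at high levels in every cell (Hspa8, Hspd1, Hspe1), whereas Hspa1a and Hspa1b are nearly silent at rest and are switched on by heat shock factor 1, which also responds when cells are handled outside the body.

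Library totals ranged from 9667187 to 24152518 counts, with a median of 17425219. Values are in CPM, counts divided by the library size after TMM scaling, unless stated otherwise. The subset labels of 5 libraries did not match the surface markers used in the sort. Cd5, the marker that separates B-1a from B-1b cells, was at 5.15 and 1.64 CPM in the B-1a libraries labelled WT 1 and WT 2, against 15.9 to 22.7 in the other 6 B-1a libraries, and at 18.7 in the library labelled B-1b WT 1, against 2.09 to 5.10 in 5 other B-1b libraries. Fcer2a, which encodes the B-2 marker CD23, was at 815 CPM in the library labelled B-1a WT 1 and at 598 in that labelled B-1b WT 2, but at 24.2 in that labelled B-2 WT 1, where the other 5 B-2 libraries held 484 to 834. All 5 libraries labelled WT 1 or WT 2 therefore lay outside the range of their subset label for at least one of these markers. The deposited labels were kept. Genotype differences, and those between WT B-1a and B-1b cells, were also fitted without these libraries. Correlations, spreads within groups and outlying values are given only with them.

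Heat shock factor 1 binds inverted repeats of GAA, so the promoters of the members were searched for such words. RefSeq promoter windows (build GRCm38.p6, 250 bases before to 50 bases after a start site) were found for 8 of the 10 members, and none was in the table for Hspa8 and Hsp90aa1. A pair of repeats (GAANNTTC or TTCNNGAA, each its own reverse complement) was present in a window of 7 of these 8 genes, against 17.0% of all genes in the table and 15.1% of all windows. The longer word of 3 repeats (GAANNTTCNNGAA or TTCNNGAANNTTC, reverse complements of each other, each containing both short words) was present for Hsph1, Hspe1 and Hspd1, against 0.662% of all genes and 0.603% of all windows. Dnajb1 held none of these words in its windows. The 150 bases before the start are shown for the 4 members whose values are discussed most or whose elements are clearest, 5′ to 3′ on the strand of the gene, with the words in capitals, and each was placed in GRCm39 by an exact match of its window.
Hspa1a, chr17:35191133-35191282, minus strand: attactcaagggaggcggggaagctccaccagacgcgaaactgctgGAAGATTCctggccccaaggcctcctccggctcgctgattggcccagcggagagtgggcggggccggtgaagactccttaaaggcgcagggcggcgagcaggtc
Hspa1b, chr17:35178215-35178364, minus strand: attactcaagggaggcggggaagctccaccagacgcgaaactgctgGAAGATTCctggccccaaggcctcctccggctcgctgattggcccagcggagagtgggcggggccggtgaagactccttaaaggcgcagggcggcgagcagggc
Hspb1, chr5:135916623-135916772, plus strand: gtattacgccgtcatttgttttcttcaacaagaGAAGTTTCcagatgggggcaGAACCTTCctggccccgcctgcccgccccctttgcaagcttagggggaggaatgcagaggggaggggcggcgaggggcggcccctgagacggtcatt
Hspe1, chr1:55127157-55127306, plus strand: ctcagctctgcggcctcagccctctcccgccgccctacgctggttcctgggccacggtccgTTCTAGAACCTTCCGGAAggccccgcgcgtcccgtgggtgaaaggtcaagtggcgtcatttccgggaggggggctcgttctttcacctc
The Hspa1a and Hspa1b stretches differed at 1 of 150 positions, and the full windows at 4 of 300. The run of repeats before Hspe1 is the same DNA that the Hspd1 window holds on the other strand, because the 2 genes start head to head.

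Per length of transcript, Hspa8 was the most abundant member, and Hspa1a the least. The median over the 21 libraries was 577 TPM (counts scaled by transcript length and library) for Hspa8, the constitutive HSP70, and 229 TPM for Hsp90aa1. Hspd1 (132 TPM) and Hspe1 (127 TPM) followed and could not be ordered, since Hspd1 was the higher in 10 of 21 libraries. Dnaja1 (82.7 TPM) and Dnajb1 (76.9 TPM) were likewise intermixed, with Dnaja1 the higher in 12 libraries. Hsph1 had a median of 10.8 TPM, Hspb1 of 9.32 TPM, and the inducible HSP70 genes Hspa1b and Hspa1a of 9.50 and 2.04 TPM. Hspa1b and Hspb1 were also intermixed, with Hspa1b the higher in 9 libraries. These levels leave out fragments that align to several places. Of the 100-base words in its canonical transcript, Hspa1a shared 47.1% with Hspa1b, Hspa8 shared 58.5% with Gm15459, Hsp90aa1 36.7% with Gm12346, and Hspb1 55.4% with Hsp25-ps1, so the levels of these genes are uncertain, and the split of reads between Hspa1a and Hspa1b with them. Counting ignored strand and dropped fragments that touch exons of more than one gene. Hspa1a shares 564 of its 2967 exon bases (19.0%) with exons of Gm20481, an opposite-strand lncRNA at 0 counts in every library, whereas no overlapping gene was found for Hspa1b, so the level of Hspa1a is understated to an unknown extent and its last rank is uncertain. Hspe1 and Hspd1 share 112 exon bases, and Dnaja1 shares 608 with Smu1.

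Hspa1a (ENSMUSG00000091971.4, chr17:35188166-35191132 in GRCm39, minus strand) and Hspa1b (ENSMUSG00000090877.4, chr17:35175412-35178214, minus strand) encode the stress-inducible HSP70, and they were the most variable members. In bulk samples of sorted cells, as here, fewer expressing cells and less RNA per cell cannot be told apart. In B-1b cells, Hspa1a was at 11.3, 7.20, 11.4 and 52.1 CPM in WT libraries 1 to 4 and at 2.95, 1.27 and 2.10 CPM in TET2-KO libraries 1 to 3. Every TET2-KO B-1b library was below every WT library. Hspa1b in the same libraries was at 38.0, 31.2, 60.1 and 198 CPM in WT and at 17.3, 11.6 and 9.46 CPM in TET2-KO cells, again without overlap. In B-1a cells, Hspa1a was at 0.583, 0.317, 9.65 and 30.1 CPM in WT libraries and at 3.15, 0.618, 0.346 and 0.342 CPM in TET2-KO libraries. Hspa1b was at 1.12, 1.32, 53.6 and 123 CPM in WT and at 11.9, 7.67, 3.51 and 3.59 CPM in TET2-KO B-1a libraries. The groups overlapped in B-1a cells, where the libraries labelled WT 1 and WT 2 were among the lowest and WT 3 and WT 4 the highest. In B-2 cells, Hspa1a was at 5.12 and 30.0 CPM in WT libraries 1 and 4 and at 2.57, 0.776, 0.484 and 0 CPM in TET2-KO libraries, the last with 0 counts, which allows up to 0.201 CPM (3 counts, counting error only). Hspa1b was at 25.8 and 123 CPM in WT and at 14.4, 7.62, 1.99 and 0.542 CPM in TET2-KO B-2 libraries. Both genes were lower in every TET2-KO B-2 library than in either WT library. The separations in B-1b and B-2 cells follow the deposited labels, which the markers of WT 1 and WT 2 went against. The library labelled B-1a WT 1 carried Fcer2a at 815 CPM, within the range of B-2 libraries. Its Hspa1a level (0.583 CPM) lay below that of TET2-KO B-2 libraries 1 and 2 (2.57 and 0.776). The library labelled B-1a WT 2 had low Cd5 (1.64 CPM) and held less Hspa1a (0.317 CPM) than every TET2-KO B-1b library.

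**Figure D1:**
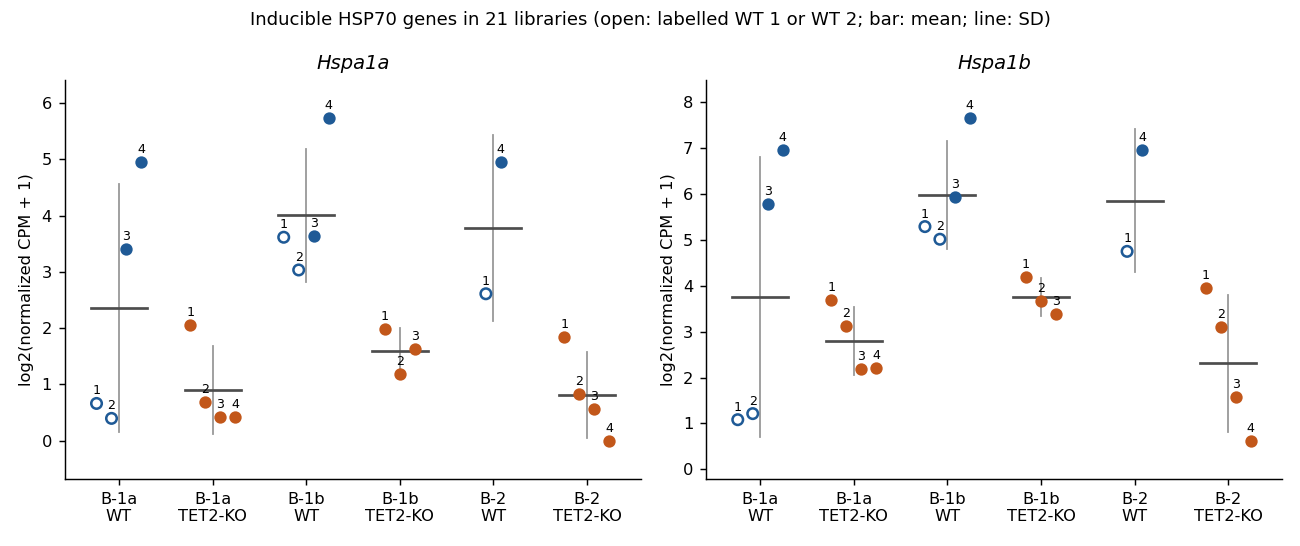
Levels of Hspa1a and Hspa1b in 21 libraries, as log2(normalized CPM + 1), by subset and genotype, with the library number above each point. Bars are means of these log2 values, lines are SDs, and open points are libraries labelled WT 1 or WT 2. WT libraries numbered 3 and 4 lie above all 11 TET2-KO libraries for both genes, and the B-1a libraries labelled WT 1 and WT 2 lie at the level of TET2-KO libraries.

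Across subsets, the 5 libraries labelled WT 3 or WT 4 held 9.65 to 52.1 CPM of Hspa1a and 53.6 to 198 CPM of Hspa1b, all above the highest of the 11 TET2-KO libraries (3.15 and 17.3 CPM). No other member separated these 5 libraries from the TET2-KO libraries. This grouping was made with the values known, and the share of all genes that separate in this way was not computed. It includes the B-1b libraries whose Hspa1a values helped to choose the genes, so it is a description and was not tested. Library number went with level within each genotype. The WT 4 library was the highest WT library of all 3 subsets for both genes, and the TET2-KO library numbered 1 was the highest TET2-KO library of all 3 subsets for Hspa1a, Hspa1b, Hspa8, Dnajb1 and Dnaja1. The part that a shared mouse or a shared day of preparation may have in this was not tested. The counts of Hspa1b exceeded those of Hspa1a in every library, by 1.92 to 12.4 times in the 20 libraries where Hspa1a was counted. This ratio includes the fragments that Hspa1a alone lost to Gm20481, and the part of that loss was not tested.

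Another set of members stood apart in other libraries. Hspa8 (ENSMUSG00000015656.18, chr9:40712280-40721383, plus strand) was at 3346, 2987, 1108 and 1297 CPM in WT B-1b libraries 1 to 4 and at 1425, 897 and 1021 CPM in TET2-KO B-1b libraries. In B-2 cells it was at 3207 and 1152 CPM in WT libraries 1 and 4 and at 1224, 715, 1091 and 434 CPM in TET2-KO libraries. In B-1a cells it was at 1470, 1276, 1009 and 1262 CPM in WT and at 1351, 1026, 1033 and 762 CPM in TET2-KO libraries. The 3 libraries labelled B-1b WT 1, B-1b WT 2 and B-2 WT 1 thus held at least 2987 CPM, whereas the other 18 held at most 1470. Dnaja1, a J-domain partner of HSP70, was at 823 to 1028 CPM in these 3 libraries and at 111 to 500 in the others. Hsp90aa1, the inducible HSP90, was at 834 to 974 CPM against 266 to 535, and Hsph1, the nucleotide exchange factor, at 105 to 126 CPM against 11.6 to 64.5. The mitochondrial pair followed, with Hspd1 at 284 to 352 CPM against 60.2 to 220 and Hspe1 at 160 to 187 CPM against 52.9 to 121. Dnajb1, the J-domain partner most closely tied to the stress response, was high in the 3 libraries (209 to 254 CPM) and also in B-1b WT 4 (228 CPM), so it overlapped the others.

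The sum of the 10 members was 5677 to 6298 CPM in these 3 libraries and 1008 to 2896 CPM in the other 18. In 6 members all 3 libraries lay above the other 18, and so did 1.04% of the 22597 genes kept over all libraries. Among other chaperones, the same was true of 6 of 8 subunits of TRiC, the cytosolic chaperonin (Cct3, Cct4, Cct5, Cct6a, Cct7 and Tcp1), and of 8 of 28 cytosolic chaperones and co-chaperones, including Hsp90ab1, Stip1 and Ahsa1, which act with HSP90. It was true of 2 of 10 endoplasmic reticulum chaperones (Hspa5 and Dnajb9), of 1 of 7 mitochondrial chaperones and proteases (Hspa9), and of 0 of 4 genes for heat shock factors and their binding protein. This property was defined after the values had been seen and was not tested. All 3 libraries are among the 5 whose sort markers went against their labels, and their markers differed from each other, since Fcer2a was at 17.3, 598 and 24.2 CPM in them. At the other end, the library labelled B-2 TET2-KO 4 was the lowest of all 21 for 8 of the 10 members and was also the lowest in summed B cell markers (11160 CPM) and in total counts (9667187).

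**Figure D2:**
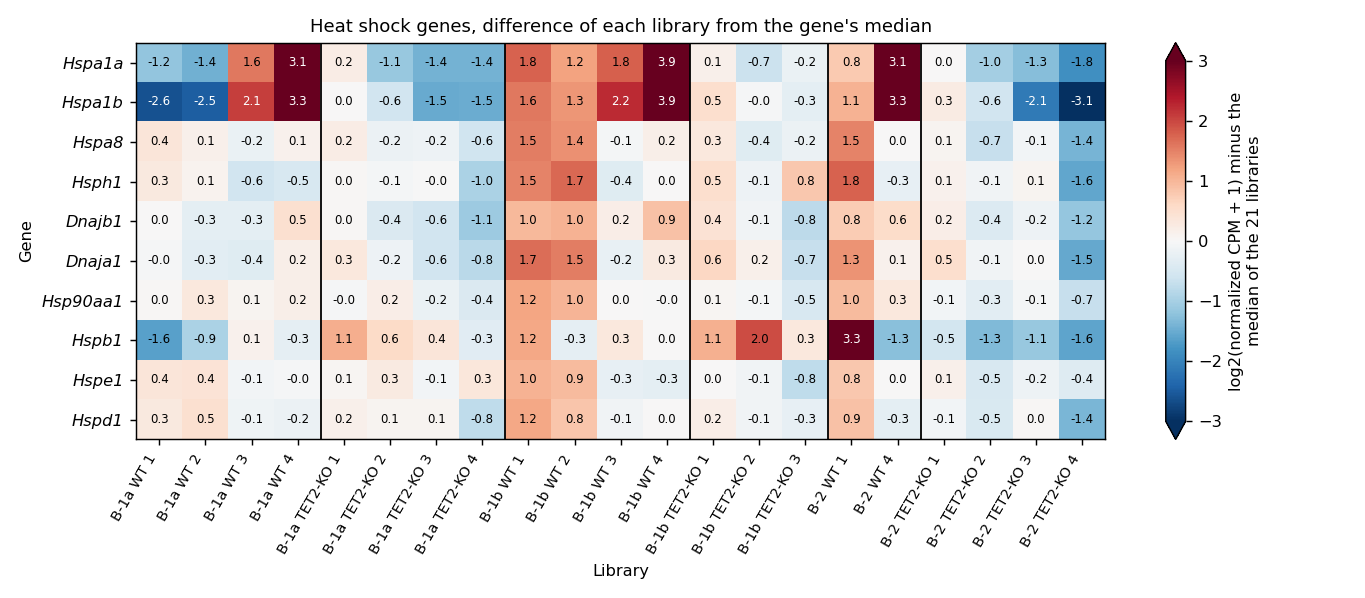
Difference of each library from the median of the gene, in log2(normalized CPM + 1), for 10 genes (rows) and 21 libraries (columns, grouped by subset and genotype). Hspa1a and Hspa1b are red in every library labelled WT 3 or WT 4, whereas Hspa8, Hsph1, Dnaja1, Hsp90aa1, Hspe1 and Hspd1 are red in the libraries labelled B-1b WT 1, B-1b WT 2 and B-2 WT 1.

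The members therefore varied in separate groups. After the mean of each subset and genotype had been subtracted from the log2(CPM + 1) values, Hspa1a and Hspa1b correlated with each other over the 21 libraries (Pearson r = 0.95), as did Hspa8 with Hspd1 (0.93), Hsph1 (0.93), Dnaja1 (0.91) and Hsp90aa1 (0.87). Hspa1a correlated with Hspa8 at -0.17, with Hsph1 at -0.32 and with Hspe1 at -0.46. Dnajb1 lay between, at 0.40 with Hspa1a and 0.86 with Dnaja1. The points share libraries and depth, and the few libraries named above carry much of these values. The spread within groups was wide for the inducible genes. The SD of log2(CPM + 1) within groups was 1.70 for Hspa1b and 1.30 for Hspa1a, above 99.9% and 99.6% of genes of like level, whereas it was 0.376 for Hsp90aa1, above 70.6% of genes of like level.

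**Figure D3:**
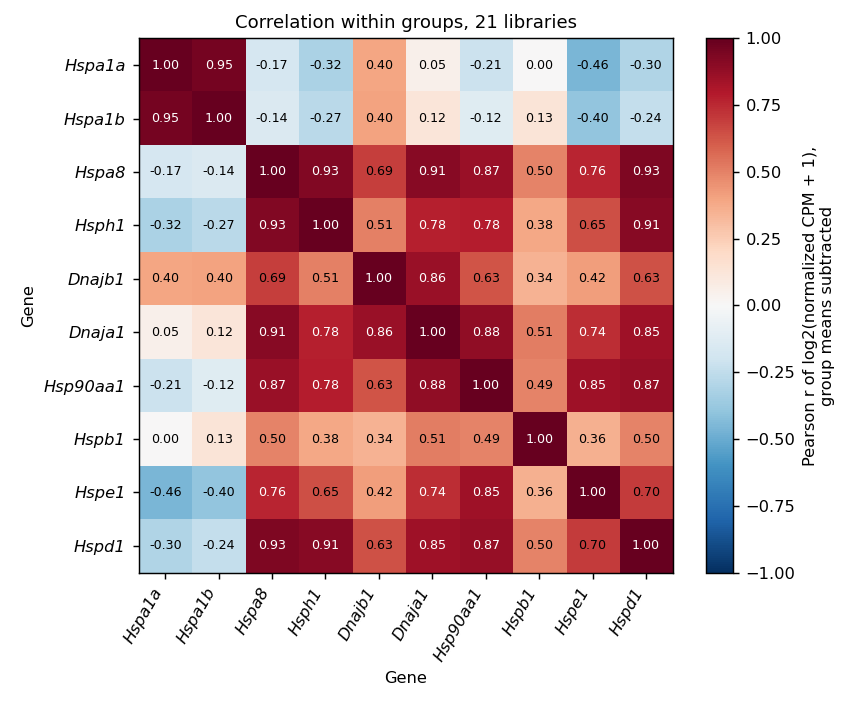
Pearson correlation between members over 21 libraries after the mean of each subset and genotype was subtracted, from log2(normalized CPM + 1). Hspa1a and Hspa1b (r = 0.95) form a block of their own, and the other members except Hspb1 correlate with each other at 0.42 to 0.93.

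Which members differed between genotypes was asked subset by subset with the quasi-likelihood test of edgeR, and p-values were adjusted over all genes tested (Benjamini-Hochberg). In B-1a cells, 0 of 9 members tested passed an adjusted p of 0.05, and 0.0503% of all genes did. At an unadjusted p under 0.05 there was 1 member, against 7.85% of all genes. It was Hspb1, at 1.30 for TET2-KO over WT on the log2 scale (standard error 0.56, adjusted p = 0.625 from edgeR), and DESeq2 called 0 members. For Hspa1b the estimate was -2.74 (standard error 1.26, adjusted p = 0.628 from edgeR). Hspa1a did not pass the filter on low counts. When WT 1 and WT 2 were left out, Hspa1b had an estimate of -3.73 (adjusted p = 0.130 from edgeR) and Hspa1a one of -4.16 (adjusted p = 0.448). Among the other 7 members the estimate was between -0.44 (Dnajb1) and 0.012 (Hspe1).

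In B-1b cells, the contrast that helped to choose the genes, the log2 fold change was -3.27 for Hspa1a and -2.67 for Hspa1b. By the labels, these 2 of 10 members were below WT in every TET2-KO library, as were 3.74% of all genes. Over all genes, 0% passed the adjusted threshold, and no call is read for the members. Without B-1b WT 4, the highest library, the estimate was -2.20 for Hspa1a and -1.72 for Hspa1b. Of the others, Hspa8 had a log2 fold change of -0.94, Dnaja1 of -0.86, Dnajb1 of -0.86, Hsp90aa1 of -0.76, Hspe1 of -0.72, Hspd1 of -0.59 and Hsph1 of -0.50, and Hspb1 one of 0.98, which was 0.39 without B-1b TET2-KO 2. Most of these rested on the libraries labelled WT 1 and WT 2. Without them, Hspa8 had a log2 fold change of -0.11, Hsp90aa1 of -0.13, Dnaja1 of 0.089, Hspe1 of 0.027, Hspd1 of 0.0067 and Hsph1 of 0.64, whereas Hspa1a (-3.91), Hspa1b (-3.34) and Dnajb1 (-0.65) stayed negative and Hspb1 (1.24) positive.

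In B-2 cells, with only 2 WT libraries, 0 of 10 members and 0% of all genes passed the adjusted threshold, and DESeq2 called 0 members. An unadjusted p under 0.05 was reached by 7 of 10 members and by 8.86% of all genes. The estimate was -4.17 (standard error 1.13) for Hspa1a and -3.59 (standard error 0.99) for Hspa1b, and the edgeR adjusted p was 0.531 for both. Along with Dnajb1 (-0.94) and Hsp90aa1 (-0.92), they were the 4 members below WT in every TET2-KO library, a property shared by 7% of all genes. Without WT 1, which leaves WT 4 alone on its side and assumes that it varies like the TET2-KO libraries, Hspa1a (-4.92) and Hspa1b (-4.30) remained low, and they were the 2 of 10 members with an unadjusted p under 0.05, which 1.78% of all genes had in that fit. Hspb1 depended on that library, as its log2 fold change moved from -4.05 to 0.29. Without the library labelled WT 4 in its place, the log2 fold change of Hspb1 was -5.00. That fit leaves only B-2 WT 1 as WT, whose Fcer2a level (24.2 CPM) went against its label, so no call is read from it.

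**Figure D4:**
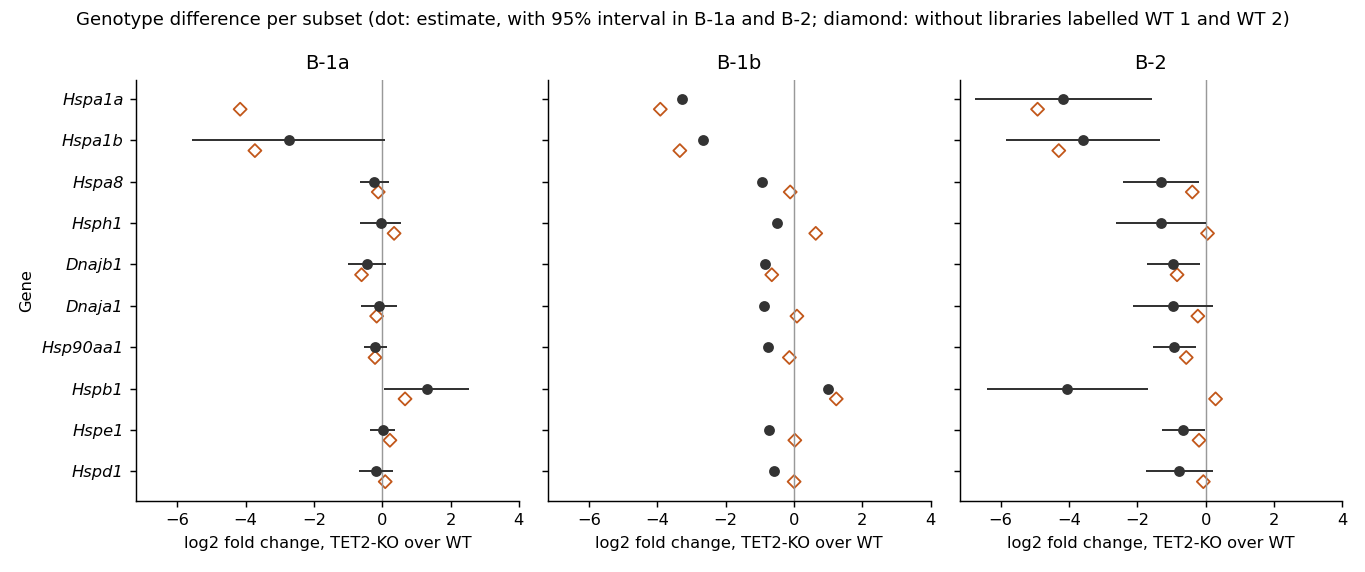
Log2 fold change of TET2-KO over WT for each member in the B-1a, B-1b and B-2 subsets. Dots are edgeR estimates, with 95% intervals from the quasi-likelihood fit in B-1a and B-2 cells and none in B-1b cells, where the genes were chosen, diamonds are the estimates with WT 1 and WT 2 left out, and Hspa1a has no dot in B-1a cells because it did not pass the filter. All dots and diamonds drawn for Hspa1a and Hspa1b are below 0, whereas most of the other members in B-1b cells move to near 0 without these libraries.

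Whether genotype acted differently in B-1a than in B-1b cells was fitted as an interaction in edgeR. It draws on the B-1b values that chose the genes, so the members are again a description, and 0% of all genes passed the adjusted threshold. The B-1a effect minus the B-1b effect was 0.079 for Hspa1a on the log2 scale, with a standard error of 1.78.

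Hspb1 (ENSMUSG00000004951.11, chr5:135916773-135918417, plus strand), the small heat shock protein also known as HSP25 or HSP27, was the only member called between subsets, in 2 of the 4 comparisons made. In TET2-KO cells it was at 11.1, 7.48, 6.28 and 3.47 CPM in B-1a, at 10.9, 21.1 and 6.01 CPM in B-1b, and at 2.87, 1.27, 1.56 and 0.880 CPM in B-2 libraries. Every B-1a and B-1b library was above every B-2 library, as were 8.4% of all genes for B-1a and 7.32% for B-1b libraries. It rose 4.19 times in B-1a over B-2 cells (log2 fold change 2.07, standard error 0.49, adjusted p = 0.0212 from edgeR) and 7.47 times in B-1b over B-2 cells (2.90, standard error 0.52, adjusted p = 0.00691). These were 1 of 10 members called in each comparison, where 5.82% and 2.15% of all genes were called. The B-1a call was lost when B-1a TET2-KO 1 (adjusted p = 0.0693) or B-2 TET2-KO 2, 3 or 4 (0.0822, 0.0521 and 0.0671) was left out, and the B-1b call without B-1b TET2-KO 2 (0.0540). Both were lost when all 21 libraries were fitted together (0.150 and 0.123), although the estimates hardly moved (2.09 and 2.93). In WT cells, Hspb1 was at 0.826, 1.95, 5.21 and 3.71 CPM in B-1a libraries, at 11.7, 3.73, 6.11 and 4.67 CPM in B-1b libraries, and at 55.0 and 1.37 CPM in B-2 libraries 1 and 4. The highest value of all 21 libraries was thus in the library labelled B-2 WT 1, where the CD23 gene was low.

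**Figure D5:**
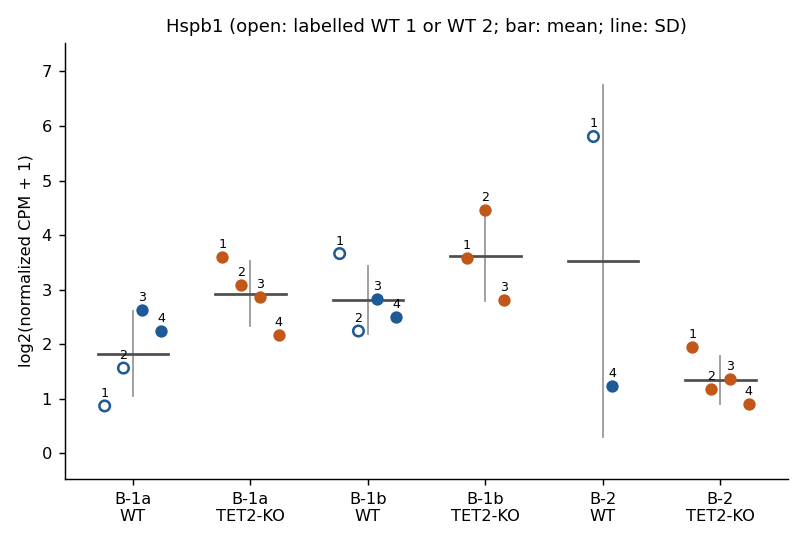
Level of Hspb1 in 21 libraries, as log2(normalized CPM + 1), by subset and genotype, with the library number above each point, means of the log2 values as bars, SDs as lines, and libraries labelled WT 1 or WT 2 as open points. The 7 TET2-KO B-1a and B-1b libraries lie above the 4 TET2-KO B-2 libraries, and B-2 WT 1 is the highest point.

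No other member was called between subsets. Between B-1a and B-1b cells of TET2-KO mice, 0 of 10 members passed (edgeR, 0 also by DESeq2), and 0.205% of all genes did. An unadjusted p under 0.05 was reached by 0 members and by 5.78% of all genes. The 95% interval of the B-1a over B-1b difference was -0.74 to 0.57 for Hspa8 and -0.41 to 0.51 for Hsp90aa1 on the log2 scale, but -3.29 to 1.48 for Hspa1a. Between B-1a and B-1b cells of WT mice, 0 of 10 members and 0% of all genes passed, and DESeq2 called 0 members. All 10 estimates were negative there, with a median of -0.84 against -0.0011 over all genes, and 4 members and 1.86% of all genes had an unadjusted p under 0.05 (Dnajb1 -0.80, Dnaja1 -1.14, Hsph1 -1.11 and Hspa8 -0.79, edgeR adjusted p = 1.00 for each). With WT 1 and WT 2 left out, these 4 estimates were -0.43, -0.11, -0.36 and -0.085. The groups overlapped in all 10. In the same comparison 4 of 10 macrophage markers had a positive estimate with an unadjusted p under 0.05, and their part in the result was not tested.

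Other chaperone genes were read from lists by compartment. In the genotype comparisons, no listed chaperone passed the adjusted test in any subset. Of 27 cytosolic chaperones and co-chaperones tested, 16 had a negative log2 fold change in B-1a cells (median -0.044, against 0.022 over all genes), 20 in B-1b cells (-0.20 against -0.0055) and 26 in B-2 cells (-0.35 against 0.18). All 8 TRiC subunits were negative in B-1b (median -0.36) and B-2 cells (-0.59), and 7 were in B-1a cells (-0.18). The 10 endoplasmic reticulum chaperones had medians of -0.18, -0.19 and -0.56 in the B-1a, B-1b and B-2 subsets, and the 7 mitochondrial chaperones and proteases medians of -0.082, -0.082 and -0.40. Most of these leanings shrank or changed sign when WT 1 and WT 2 were left out. In those fits 8 cytosolic genes were negative in B-1a (median 0.027), 14 in B-1b (-0.00041) and 15 of 28 in B-2 cells (-0.0083), and the TRiC median was 0.038, -0.030 and -0.092, with all 8 subunits still negative in B-2 cells. The median of all genes was 0.022, 0.0074 and 0.20. The endoplasmic reticulum median was then 0.25, 0.12 and -0.12, and the mitochondrial median 0.047, 0.061 and -0.072, with 7 of 10 endoplasmic reticulum genes negative in B-2 cells. Between TET2-KO B-1a and B-2 cells, 1 of 27 cytosolic genes rose, where 5.82% of all genes were called, namely the J-domain protein gene Dnajc7 (log2 fold change 0.74, adjusted p = 0.0294 from edgeR). In the endoplasmic reticulum list, Pdia4, a disulfide isomerase, rose in B-1a (1.36, adjusted p = 0.00673) and in B-1b cells (1.25, adjusted p = 0.0334) over B-2 cells, each as 1 of 10 where 5.82% and 2.15% of all genes were called. None of the heat shock factor genes passed in any comparison.

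Signs of other cells and of cell activation were measured beside these results. The summed level of 15 immediate early genes, which are induced within minutes by stimulation or dissociation, was 668 to 1569 CPM, with 1472 and 1470 CPM in the B-1b libraries WT 3 and WT 4 and 1175 to 1493 CPM in TET2-KO B-1b libraries. In B-1a cells it was 1547 and 1456 CPM in WT 3 and WT 4 and 961 to 1463 CPM in TET2-KO libraries. In B-2 cells, where Hspa1a and Hspa1b were lower in every TET2-KO library, the sum was 1537 and 1473 CPM in WT 1 and WT 4 and 668 to 1404 CPM in TET2-KO libraries, without overlap. Jun, Egr2, Nr4a1 and Btg2, named after their values were seen, were each lower there in every TET2-KO library than in either WT library. This held for 7% of all genes. Egr3 was higher in every one, and 0 of the 15 passed the adjusted test. The library labelled B-2 WT 1 is among those whose sort markers went against their labels. Without it, which leaves WT 4 alone, the median log2 fold change of the 15 genes was -0.38, against 0.20 over all genes. The part of the difference in immediate early genes in the Hspa1a and Hspa1b values was not tested. One member of that list, Atf3, rose in TET2-KO B-1a (2.50, adjusted p = 0.000565 from edgeR) and B-1b cells (2.29, adjusted p = 0.00374) over B-2 cells. It was 1 of 15 in each, where 5.82% and 2.15% of all genes were called. All 10 macrophage markers were counted, with a summed level of 4354 to 30404 CPM across libraries, mostly Lyz2, against 11160 to 27983 CPM for 6 B cell markers. In TET2-KO libraries the macrophage sum was 4830 to 28912 CPM in B-1a, 6363 to 15275 CPM in B-1b and 4354 to 19820 CPM in B-2 cells, ranges that overlapped where Hspb1 did not. Erythroid markers were highest in the libraries labelled B-1a WT 1 and WT 2 (1704 and 965 CPM), where Hspa1a and Hspa1b were the lowest among WT libraries, and 5 of 5 erythroid genes tested had a negative estimate in TET2-KO B-1a cells with an unadjusted p under 0.05, against 7.85% of all genes in either direction. T cell markers summed to 17.0 to 108 CPM. The part of these cells in the results was not tested.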

How the data were processed

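Per-gene counts of fragments were deposited by the authors for 21 libraries, 1 file each, as whole numbers with no normalization. Per the study's methods, reads were trimmed with fastp and aligned to GRCm39 with STAR. Per the file headers, featureCounts 1.6.1 counted pairs on GENCODE vM32 without strand and with no other option, and its defaults leave out fragments with several alignments or touching several genes. The labels describe poly-T capture and the methods amplified full-length cDNA, so the selection step is not certain. No molecular identifiers were used, so floors cover counting error only. Symbols came from GENCODE vM39 and matched 56310 of 56953 identifiers. Groups came from the labels. Of 210 pairs of libraries, 0 were identical.

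CPM used TMM factors (0.753 to 1.54) over all libraries, and TPM the deposited exon lengths. Genes were tested with edgeR 4.0.16 (R 4.3.3, filterByExpr, robust quasi-likelihood fits, Benjamini-Hochberg adjustment at 0.05), each subset fitted apart, TET2-KO subsets in 1 fit, and WT B-1a and B-1b libraries in 1 fit. The fits were tested on simulated data. Alternatives were DESeq2 1.42.0, RLE size factors, no filter, at least 10 counts in every library, TMM without immunoglobulin genes, all libraries in 1 fit, a block for the replicate number, fits without each library in turn, and fits without WT 1 and WT 2. A block with numbers kept apart by genotype was added after seeing the data. The members and lists were chosen with earlier results of these data known. All members are named. From each other list at most 3 genes per direction with an adjusted p under 0.05 were named per comparison, and the 10 and 5 genes most correlated with the members and with Hspa1a.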

Additional observations from a re-analysis of the deposited data

Results flagged for a closer look

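In groups of 4 libraries, 4 values stood apart from the rest of their group by Dixon's criterion, which divides the gap to the nearest library by the range. Of 44 groups and genes tested, chance alone gives about 1 in 20 if values are normally distributed. The ratios were taken on CPM without a log scale, and normality was not tested. Members also varied together (Hsph1 with Hspd1 at r = 0.91 within groups), so the 44 are not independent. The number expected by chance is therefore not known, and the 4 values are given as a description. Hspa1a was at 3.15 CPM in the B-1a library TET2-KO 1, against 0.342 to 0.618 CPM in the other 3 TET2-KO B-1a libraries. Hspa1a was at 52.1 CPM in the B-1b library WT 4, against 7.20 to 11.4 CPM in the other 3 WT B-1b libraries, and without it the log2 fold change of TET2-KO over WT was -2.20 in place of -3.27. In the B-1a library TET2-KO 4, Hsph1 was at 18.3 CPM, against 34.7 to 37.5 CPM, and Hspd1 was at 93.1 CPM, against 167 to 176 CPM, in the other 3 TET2-KO B-1a libraries. That library also had the lowest macrophage sum of its group (4830 CPM). The part of these differences in the values was not tested.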

How the results depend on the processing

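Of the single-gene values, 1253 kept their direction and side of the threshold under an alternative, 88 reversed, 13 moved, 7 lost and 3 gained a call; the reversed ones were mostly near 0. No count of members called is given for the B-1b genotype contrast or the interaction, which hold the values that chose the genes. With no filter the count of members called was 1 in B-2 cells (Hspa8) and 1 between WT B-1a and B-1b cells (Dnajb1). With all 21 libraries in 1 fit it was 0 for both B-1 subsets against B-2. With 1 library left out it ranged from 0 to 1 in both comparisons with B-2. No such count is given for B-2 genotype effects, where fits without a WT library leave 1 WT library. The cause of these changes was not tested. The counts stand without the share of all genes called, so none is read as a departure from it.

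With WT 1 and WT 2 left out, the B-1a genotype estimate was 0.35 for Hsph1 and 0.088 for Hspd1, that in B-2 cells 0.056 for Hsph1 and 0.29 for Hspb1, and the WT B-1a over B-1b difference 0.12 for Hsp90aa1 and 0.22 for Hspe1. The interaction was then -0.26 for Hspa1a, -0.012 for Hspa8, -0.29 for Hsph1, -0.26 for Dnaja1, -0.081 for Hsp90aa1 and -0.57 for Hspb1. Hspe1 in B-1a cells was -0.012 with DESeq2, -0.052 with no filter and -0.028 in 1 fit of all libraries. Hsph1 in TET2-KO B-1a over B-2 cells was -0.073 with DESeq2, -0.074 with RLE, -0.0014 with no filter, -0.10 with at least 10 counts and -0.044 without immunoglobulin genes. Hsp90aa1 in B-1b over B-2 cells was -0.0026 with DESeq2, -0.0041 with RLE and -0.037 with at least 10 counts, and Hspd1 in TET2-KO B-1a over B-1b cells was 0.0053 with no filter.

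The labels do not say that a number marks a mouse. Between subsets, deviations of same-numbered TET2-KO libraries correlated over 0.1 in 9 of 10 pairs (median r = 0.37). Pairs of unlike number did so in 5 of 30 (median r = -0.13). In WT libraries, 4 of 8 same-numbered pairs (0.14) and 8 of 24 others (-0.0019) did, with WT 1 and WT 2 included. Between WT and TET2-KO libraries of the same subset, 3 of 9 same-numbered pairs (0.060) and 5 of 27 others (-0.055) did. Deviations cancel out within a group, so pairs of unlike number lean negative where same-numbered pairs are positive, and they are not an independent baseline. By their own pairs, same-numbered TET2-KO libraries varied alike. The main fits nevertheless took all libraries as independent, and a block for the replicate number was an alternative. In the genotype contrasts this block joined WT with TET2-KO libraries of the same number, which come from different mice. The replicate block changed no count of members called in the other comparisons. It moved genes called from 7 to 48 in B-1a, from 1080 to 1638 in B-1a against B-2, from 399 to 667 in B-1b against B-2, from 38 to 103 in TET2-KO B-1a against B-1b and from 0 to 2 between WT B-1a and B-1b cells, and left 0 in B-1b, B-2 and the interaction. With the replicate block, Hspa1a was -2.24 and Hspa1b -1.69 in B-1b cells, the interaction of Hspa1b 0.16 (1.47 with numbers kept apart by genotype, where 1 gene was called), Dnajb1 -0.024, Dnaja1 -0.016 and Hsp90aa1 -0.030 in B-1b over B-2 cells, and Hspa8 0.13 and Hspd1 0.21 in TET2-KO B-1a over B-1b cells.

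With 1 library left out, values that changed sign spanned -0.17 to 0.13 (Hsph1), -0.33 to 0.046 (Dnaja1) and -0.076 to 0.082 (Hspe1) in B-1a; -1.96 to 0.056 (Hsph1) and -5.00 to 0.29 (Hspb1) in B-2 genotype effects; -1.26 to 1.62 (Hspa1a), -1.02 to 1.19 (Hspa1b) and -0.11 to 0.91 (Hspb1) in the interaction; -1.18 to 1.35 (Hspa1a), -0.37 to 0.93 (Hspa1b), -0.26 to 0.20 (Hsph1), -0.45 to 0.0091 (Dnajb1) and -0.44 to 0.12 (Dnaja1) in B-1a over B-2. They spanned -0.13 to 0.43 (Dnajb1), -0.11 to 0.48 (Dnaja1), -0.021 to 0.20 (Hsp90aa1) and -0.21 to 0.077 (Hspe1) in B-1b over B-2, -0.23 to 0.14 (Hspa8), -0.097 to 0.18 (Hsp90aa1) and -0.11 to 0.16 (Hspd1) in TET2-KO B-1a over B-1b, and -2.59 to 0.045 (Hspa1a) and -2.15 to 0.072 (Hspa1b) in WT B-1a over B-1b cells.

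Genes called by DESeq2 and with no filter numbered 189 and 318 in B-1a, 60 and 131 in B-1b, 169 and 167 in B-2, 1 and 144 for the interaction, 3478 and 1699 in B-1a against B-2, 2872 and 870 in B-1b against B-2, 141 and 123 in TET2-KO B-1a against B-1b and 1 and 27 in WT B-1a against B-1b cells. In 1 fit of all libraries they numbered 80 in B-1a, 7 in B-1b against B-2 and 6 in TET2-KO B-1a against B-1b cells. Without WT 1 and WT 2 they numbered 0 in B-1a and 500 between WT B-1a and B-1b cells. Of genes called in B-1a against B-2, 604 were higher and 476 lower, against 852 and 2626 with DESeq2, where the median of all genes was -0.92 in place of -0.053, and in B-1b against B-2, 282 were higher and 117 lower, against 539 and 2333 with DESeq2 (median -0.96 in place of -0.098).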

Other observations

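The genes whose levels varied most like those of the members were looked up over 22587 other genes, after group means were subtracted, over 21 libraries. The 10 most alike to the mean of the scaled members were Cacybp (Pearson r = 0.91), Snap23, Tsc22d3, Itm2b, Dynll1, Tmem33, Pcnp, Klf10, Adam10 and Ahsa2 (0.86). Ahsa2 belongs to the family of HSP90 co-chaperones that speed its ATPase cycle. Cacybp was at 405, 385 and 332 CPM in the libraries labelled B-1b WT 1, B-1b WT 2 and B-2 WT 1. Most alike to Hspa1a were Appl2 (0.88), Wnt11 (0.87), Mlxipl (0.85), Nox1 (0.83) and Rsrp1 (0.83), of which Wnt11 and Nox1 had median levels of only 0.282 and 0.391 CPM. These values share libraries and depth and are given without a test.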
